A study of Mus musculus with 2 samples.

Results

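The genes described here make, destroy, sense and anchor the cyclic nucleotides cAMP and cGMP. They are the protein-coding genes of the GENCODE M21 annotation whose names begin with Pde or Adcy and a digit, or with Prkac, Prkar, Prkg or Akap. The rule names 60 genes, and 59 of them had a row in the gene tables of both libraries, out of 21474 protein-coding genes with a row. They comprise 10 adenylyl cyclases, 20 phosphodiesterases, 4 regulatory and 2 catalytic subunits of protein kinase A (PKA), 2 cGMP-dependent protein kinases (PKG), 16 A-kinase anchoring proteins (AKAPs) and 5 genes that carry the Pde name without encoding a catalytic subunit of a cyclic nucleotide phosphodiesterase. The missing one is Pde2a, a phosphodiesterase gene whose M21 identifier matched no row.

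Total RNA longer than 200 nt was sequenced from hearts of mouse embryos at embryonic day 16.5. There was 1 group, with 2 libraries that the labels number as biological replicates 1 and 2 and that are called pool 1 and pool 2 here. Both pools were hearts of male and female embryos of strain B6NCrl, for which the labels give no genetic change and no treatment. Pool 2 held 41 embryos, no number is given for pool 1, and both libraries carry 1 donor identifier, so nothing beyond the replicate numbers says how separate the pools were. Pool 1 held 37160624 estimated counts and pool 2 held 40360242, of which spike-in RNAs took 1.62% in pool 1 and 3.41% in pool 2. Levels are given as TPM, the field's measure of transcript abundance in which a read count is corrected for transcript length and scaled to the library, as the value of each pool or as mean ± SD over both (n = 2).

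A hormone or transmitter receptor that couples to the stimulatory G protein switches on adenylyl cyclase, which turns ATP into cAMP. The classical receiver of cAMP is PKA, in which a dimer of regulatory subunits holds catalytic subunits inactive until cAMP binds. AKAPs tether the regulatory subunits near particular substrates, and phosphodiesterases hydrolyse cAMP, cGMP or both, which limits how far and how long a signal acts. In heart muscle the pathway carries the adrenergic increase in rate and force, through phosphorylation of calcium-handling and sarcomere proteins. In whole-heart RNA, fewer cells of a type and less RNA per cell cannot be told apart.

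The regulatory and catalytic PKA subunits Prkar1a and Prkaca stood far above the other genes, so the sequences just before their start sites are shown first. Pde4a follows because its coding transcripts were split between separate start sites. Each line gives the 250 bases before a RefSeq start, 5′ to 3′ on the gene's strand, on build GRCm38.p6. Capitals mark matches on either strand to the cAMP response element TGACGTCA, to its shorter form TGACG, to the GC box GGGCGG, to CCAAT and to TATAAA. The cAMP response element contains the shorter form on both strands, so a match to it also counts there.
Prkar1a, start of Prkar1a-201, chr11:109650699-109650948, plus strand: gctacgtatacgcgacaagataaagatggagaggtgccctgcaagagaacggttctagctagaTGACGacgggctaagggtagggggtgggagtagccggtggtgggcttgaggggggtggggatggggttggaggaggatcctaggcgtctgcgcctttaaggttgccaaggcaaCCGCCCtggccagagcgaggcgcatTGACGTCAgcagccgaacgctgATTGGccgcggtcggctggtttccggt
Prkar1a, upstream start of Prkar1a-203 and Prkar1a-204, chr11:109649113-109649362, plus strand: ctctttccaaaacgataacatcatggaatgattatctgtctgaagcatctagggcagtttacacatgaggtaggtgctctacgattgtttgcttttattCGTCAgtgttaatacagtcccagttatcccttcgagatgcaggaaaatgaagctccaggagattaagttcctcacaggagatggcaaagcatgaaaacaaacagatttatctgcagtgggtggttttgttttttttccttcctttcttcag
Prkaca, start of Prkaca-201, chr8:83972728-83972977, plus strand: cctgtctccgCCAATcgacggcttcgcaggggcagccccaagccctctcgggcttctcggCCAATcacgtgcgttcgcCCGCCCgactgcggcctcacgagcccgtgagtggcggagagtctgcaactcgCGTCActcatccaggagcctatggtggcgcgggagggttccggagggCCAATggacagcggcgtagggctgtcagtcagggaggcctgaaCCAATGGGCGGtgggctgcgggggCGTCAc
Pde4a, start of Pde4a-203 and Pde4a-205, chr9:21183851-21184100, plus strand: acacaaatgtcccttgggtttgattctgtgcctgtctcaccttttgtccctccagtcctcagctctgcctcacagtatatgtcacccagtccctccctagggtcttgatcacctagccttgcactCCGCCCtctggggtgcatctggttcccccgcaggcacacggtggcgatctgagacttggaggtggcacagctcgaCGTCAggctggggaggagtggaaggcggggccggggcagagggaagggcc
Pde4a, start of Pde4a-202, chr9:21165464-21165713, plus strand: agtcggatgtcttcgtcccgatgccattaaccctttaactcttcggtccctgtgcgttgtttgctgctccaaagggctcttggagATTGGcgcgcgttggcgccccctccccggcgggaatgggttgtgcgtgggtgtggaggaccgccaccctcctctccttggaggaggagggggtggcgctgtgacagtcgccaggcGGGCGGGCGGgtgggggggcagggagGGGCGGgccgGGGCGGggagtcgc

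Transcripts were tied to a RefSeq start when their M21 start lay within 100 bases of it. The first Prkar1a window lay beside the start of 323 TPM in pool 1 and 329 TPM in pool 2, and the upstream one beside 37.4 and 29.4 TPM. The M21 start of Prkar1a-201 lies 28 bases before the RefSeq start, so the last 28 bases of that window are inside the M21 transcript. That window holds a full cAMP response element beginning 49 bases before the RefSeq start, and the upstream Prkar1a window holds only the short form, on the minus strand. The Prkaca window has no full element, 2 short forms and 4 CCAAT matches. The Pde4a start near Pde4a-203 carried 7.83 and 6.26 TPM in pools 1 and 2, and the one near Pde4a-202 carried 4.37 and 4.00 TPM.

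The 43 members that averaged 1 TPM or more were compared first, of which 36 had a RefSeq window and 33 had one beside a transcript with a level above 0. Among these 33, each represented by the window with the most TPM beside it, Prkar1a was the only gene with the full cAMP response element, which is 3.03%, against 1.55% of all 32851 windows in the table. The short form was in 6 of the 33 windows (18.2%, against 17.8% of all windows), those of Adcy9, Akap11, Pde4a, Prkaca, Prkacb and Prkar1a. The GC box was in 21 of the 33 (63.6%, against 32.7%), CCAAT in 12 (36.4%, against 33.8%) and TATAAA in 1, that of Pde1a (3.03%, against 12.4%). Of the 33 windows, 24 stood beside over 50% of their gene's TPM, while that of Akap13 stood beside 2.91%, that of Adcy9 beside 30.2% and that of Pde1a beside 34.2%. All windows include those of genes at every level and genes with several starts. A match describes letters, not a bound site.

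A gene was counted as expressed where it had 1 TPM or more in both pools. That held for 41 of the 59 members (69.5%), against 59.1% of all protein-coding genes. By mean level, 2 members were above 100 TPM, 19 were between 10 and 100 TPM, 8 were between 0.1 and 1 TPM and 8 were under 0.1 TPM. The median member had 6.19 TPM, against 3.69 TPM for all protein-coding genes. Among genes that averaged 1 TPM or more the order turned, with a median of 9.27 TPM for the 43 members and 15.3 TPM for protein-coding genes. All members together made up 1380.0 TPM in pool 1 and 1289.9 TPM in pool 2, and Prkar1a with Prkaca made up 44.5% and 45.6% of that.

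**Figure D1:**
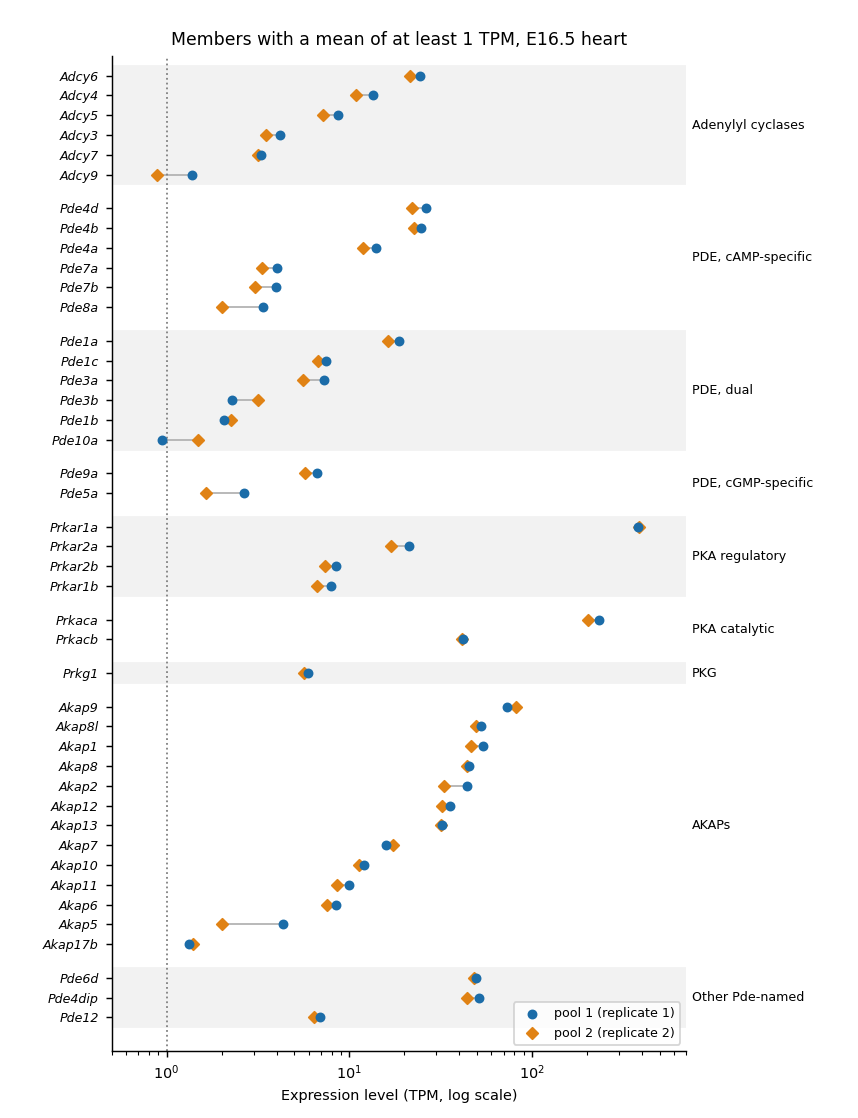
Levels of the 43 members that averaged 1 TPM or more, grouped by role, on a log scale of TPM; circles are pool 1 and diamonds pool 2. Prkar1a and Prkaca stand above 100 TPM in both pools, while cyclases and phosphodiesterases lie under 30 TPM, and Adcy9 and Pde10a fall on both sides of the dotted line at 1 TPM.

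The adenylyl cyclases are membrane enzymes that make cAMP and differ in how calcium, G protein subunits and other signals act on them. Their summed level was 52.9 ± 6.32 TPM, and 5 of the 10 genes reached 1 TPM in both pools, against 59.1% of all protein-coding genes. Adcy6, a calcium-inhibited cyclase that is one of the main forms of heart muscle, was highest, with 24.5 TPM in pool 1 and 21.5 TPM in pool 2. It held 42.6% of the cyclase total in pool 1 and 44.3% in pool 2. The second was Adcy4, a calcium-insensitive form, at 13.5 and 10.9 TPM. Adcy5, the close relative of Adcy6 and the other main cardiac form, had 8.63 and 7.15 TPM. Adcy6 lies on chromosome 15 at 98589973 to 98610076 and Adcy5 on chromosome 16 at 35154877 to 35305738.

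The Adcy5 over Adcy6 difference was -1.53 ± 0.06 on the log2 scale of TPM + 0.1, which makes Adcy5 2.89-fold lower. A pair of genes was called different where both pools gave 1 direction and their deposited intervals were separate in each pool, and this pair was. Adcy5 was also lower than Adcy4, by a log2 difference of -0.62 ± 0.02, and that pair was called different as well. This order rests on the length correction, since Adcy5 drew more counts than Adcy4, with 1592 and 1465 counts against 1203 and 1088.

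The lower cyclases were Adcy3, the form known from olfactory neurons and cilia, at 4.16 and 3.48 TPM, and Adcy7 at 3.27 and 3.18 TPM. Adcy9, a cyclase only weakly sensitive to forskolin, had 1.38 TPM in pool 1 and 0.89 TPM in pool 2 and so missed the threshold in pool 2. Adcy6 exceeded it by 4.25 ± 0.28 on the log2 scale. The calcium-stimulated cyclases Adcy1 and Adcy8, and Adcy2, were under 1 TPM on average. Adcy1 had 0.61 and 0.88 TPM, Adcy8 had 0.04 and 0.07 TPM, and Adcy2 had 1.37 and 0.46 TPM. Adcy10, the soluble bicarbonate-sensing cyclase, had 2 counts in each pool, fewer than the 3 counts that a count of 0 allows.

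Phosphodiesterases hydrolyse the second messengers and were sorted by substrate. Their summed level was 117 ± 12.0 TPM, of which the cAMP-specific genes held 61.0%, the genes that act on both nucleotides 31.7% and the cGMP-specific genes 7.31%. Pde2a, which acts on both nucleotides, has no gene row and is left out of these values. Counting all 3 transcripts listed under the identifier that holds its transcripts, described below, the genes that act on both nucleotides held 39.0%. In all, 13 of the 20 genes reached 1 TPM in both pools, against 59.1% of all protein-coding genes. The summed phosphodiesterase level exceeded the summed cyclase level 2.19-fold in pool 1 and 2.25-fold in pool 2. On transcripts with a complete coding sequence alone the ratio was 1.52 in pool 1 and 1.54 in pool 2.

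The Pde4 genes, the cAMP-specific enzymes inhibited by rolipram, made up 51.9% of phosphodiesterase TPM, Pde2a left out. Pde4d had 26.2 TPM in pool 1 and 22.1 TPM in pool 2, and Pde4b had 24.6 and 22.5 TPM. Their log2 difference was 0.04 ± 0.08 and its sign differed between the pools, so the pair was not called different. Pde4a had 13.9 and 11.9 TPM, lower than Pde4b by a log2 difference of -0.86 ± 0.07, a pair called different. Pde4c was at 0.44 and 0.29 TPM, from 33 and 26 counts.

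The standing of Pde4d depends on which transcripts are counted. Its leading transcript, Pde4d-211, is annotated as a processed transcript without a coding sequence and held 30.5% of the gene's TPM in pool 1 and 35.4% in pool 2. The retained-intron transcript Pde4d-212 held 27.9% and 19.0%, and the coding transcript Pde4d-207 held 18.1% and 17.9%. On complete coding transcripts Pde4d had 6.18 and 5.40 TPM and Pde4b 23.0 and 21.5 TPM, a log2 difference of -1.93 ± 0.07. Counted that way the Pde4 gene with most coding RNA was Pde4b, whose leading transcript Pde4b-207 held 51.3% and 59.1%.

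The remaining cAMP-specific genes were low. Pde7a had 4.02 and 3.31 TPM, and Pde7b 3.97 and 3.04 TPM, with a log2 difference of 0.07 ± 0.07 and no call. Both are rolipram-insensitive enzymes with high affinity for cAMP. Pde8a, another high-affinity enzyme, had 3.39 TPM in pool 1 and 2.01 TPM in pool 2, and Pde8b had 1.25 and 0.50 TPM. The Pde8a over Pde8b pair was called different, at 1.59 ± 0.31 on the log2 scale. The TPM of Pde8b, from 83 counts in pool 1 and 33 in pool 2, lay below its deposited interval in both pools. By the deposited posterior mean TPM the log2 difference was 0.99.

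Among the genes that act on both nucleotides, the calmodulin-stimulated Pde1 genes led with a sum of 26.7 ± 2.00 TPM, against 9.17 ± 0.59 TPM for the cGMP-inhibited Pde3 genes. Pde1a had 18.6 TPM in pool 1 and 16.2 TPM in pool 2, Pde1c had 7.44 and 6.78 TPM, and Pde1b had 2.06 and 2.26 TPM. Pde1c was lower than Pde1a by a log2 difference of -1.28 ± 0.04, a pair called different. The 869-nt processed transcript Pde1a-209 held 8.50 and 8.06 TPM of Pde1a. On complete coding transcripts Pde1a had 9.00 and 8.18 TPM, and the Pde1c over Pde1a difference was -0.27 on the log2 scale.

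Pde3a and Pde3b encode the enzymes that milrinone inhibits. Pde3a had 7.30 TPM in pool 1 and 5.59 TPM in pool 2, and Pde3b had 2.28 and 3.16 TPM. The log2 difference of Pde3a over Pde3b was 1.22 ± 0.59, of the same sign in both pools, and the pair was called different. The difference of Pde3b between the pools lay on short retained-intron transcripts, which had 0 counts in pool 1. In pool 2 their counts were few, 5.49 for Pde3b-202 and 8.09 for Pde3b-203. The coding transcript Pde3b-201 had 2.28 and 2.24 TPM, and the deposited intervals of Pde3b overlapped between the pools. Pde4d exceeded Pde3a by 1.90 ± 0.10 on the log2 scale with all transcripts, and on complete coding transcripts the difference was -0.14 ± 0.13. Pde10a, known for its level in the striatum of the brain, had 0.95 and 1.49 TPM, and Pde11a had 3 and 4 counts.

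The cGMP-specific genes summed to 8.62 ± 1.34 TPM. Pde9a, a high-affinity cGMP enzyme, had 6.66 TPM in pool 1 and 5.71 TPM in pool 2, and Pde5a, the sildenafil target, had 2.64 and 1.65 TPM. Pde5a was lower than Pde9a by a log2 difference of -1.52 ± 0.30, a pair called different by TPM. Pde5a nonetheless drew more counts than Pde9a in both pools, with 468 and 325 against 258 and 267. The photoreceptor enzymes Pde6a, Pde6b and Pde6c were between 0 and 0.21 TPM, with 0 to 12 counts. The 3 photoreceptor markers other than Pde6b summed to 0.40 TPM in pool 1 and 0.34 TPM in pool 2, and the photoreceptor transcription factor Crx was at 0 in both.

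Pde2a, the cGMP-stimulated enzyme, has no matching gene row, and its pair with Pde3a could not be compared. The tables list its 2 transcripts under an identifier that M21 gives to Gm45837, beside Gm45837-201, a transcript of 4208 nt that is close in length to the 4220 nt of Pde2a-201. Pde2a-201 had 1.32 TPM in pool 1 and 0.65 TPM in pool 2, and Pde2a-202 had 0 in both. Gm45837-201 had 14.4 and 12.0 TPM. The 3 transcripts together had 15.8 and 12.6 TPM, and how reads were divided among them is an estimate, so no level of Pde2a is claimed.

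The 5 other genes with a Pde name ranged from high to near-absent. Pde6d, a chaperone that carries prenylated proteins to membranes, had 49.1 TPM in pool 1 and 48.1 TPM in pool 2. Pde4dip, the centrosome and sarcomere scaffold myomegalin, had 51.2 and 44.1 TPM. Pde12, a mitochondrial RNA-processing enzyme, had 6.95 and 6.41 TPM. The inhibitory subunits of the retinal enzyme, Pde6g and Pde6h, had 4 to 7 counts.

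**Figure D2:**
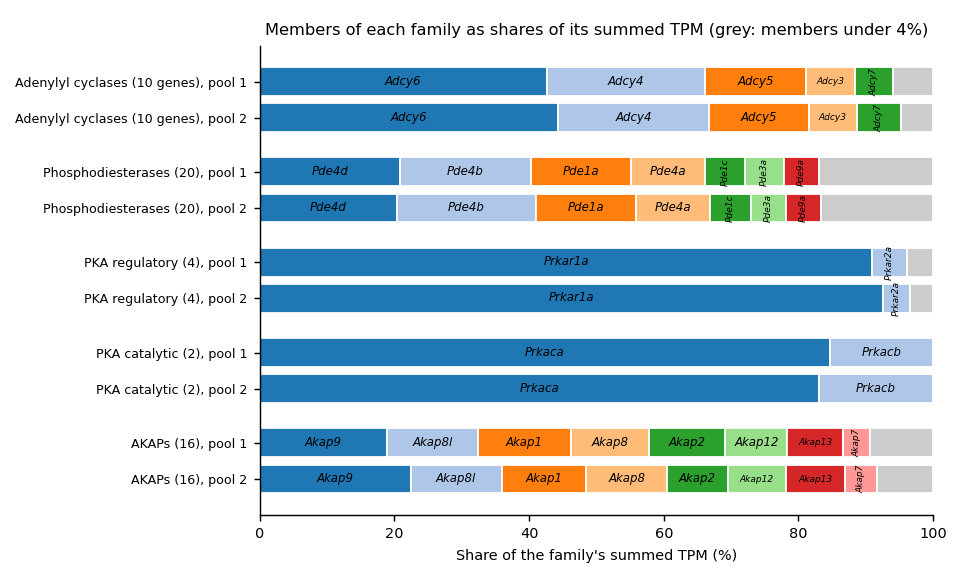
Share of each family's summed TPM (percent) held by its members, with a bar for each pool; grey holds members with a mean share under 4%. Prkar1a and Prkaca take over 80% of their families in both pools, whereas the largest phosphodiesterase, cyclase and AKAP shares are 20.8%, 44.3% and 22.4%.

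PKA regulatory subunits summed to 417 ± 1.10 TPM and catalytic subunits to 260.4 ± 22.1 TPM. Regulatory RNA exceeded catalytic RNA 1.51-fold in pool 1 and 1.70-fold in pool 2. Prkar1a, the type I regulatory subunit that is found in most tissues, had 379.8 TPM in pool 1 and 385 TPM in pool 2. It ranked 309 among protein-coding genes by mean level and held 91.0% and 92.6% of the regulatory total. The gene (ENSMUSG00000020612.16) lies on chromosome 11 at 109649405 to 109669656, on the plus strand. Its transcript Prkar1a-201 carried 85.0% and 85.6% of its TPM, and complete coding transcripts together 99.2% on average.

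The other regulatory subunits were at least an order of magnitude lower. Prkar2a, the widespread type II subunit, had 21.3 TPM in pool 1 and 16.9 TPM in pool 2. Prkar2b, the type II subunit known from fat and brain, had 8.48 and 7.37 TPM, and Prkar1b, known mainly from neurons, had 7.97 and 6.68 TPM. Prkar1a exceeded Prkar2a 20.1-fold and Prkar1b 51.7-fold, as the antilog of the mean log2 difference. The TPM of Prkar1b lay below its deposited interval in both pools. By the deposited posterior mean TPM the log2 difference of Prkar1a over Prkar1b was 5.35, against 5.69 by TPM. Type I subunits made up 93.5% of regulatory TPM. Neuronal markers summed to 5.45 TPM in pool 1 and 6.94 TPM in pool 2, and their part in the Prkar1b level was not tested.

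Prkaca, the main catalytic subunit of most tissues, had 234 TPM in pool 1 and 203 TPM in pool 2 and ranked 573 among protein-coding genes. Prkacb, the second catalytic gene, had 42.2 and 41.4 TPM. Prkaca exceeded Prkacb 5.21-fold (log2 difference 2.38 ± 0.12), and the pair was called different. Prkaca (ENSMUSG00000005469.10) lies on chromosome 8 at 83972993 to 83996443, and the tables list 1 transcript for it, so its alternative first exons could not be compared. Of Prkacb, the transcript Prkacb-202 held 92.3% and 88.1%.

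The cGMP-dependent kinases were low beside PKA. Prkg1, the form of smooth muscle and heart, had 5.98 TPM in pool 1 and 5.64 TPM in pool 2, and Prkg2, known from intestine and brain, had 0.22 and 0.21 TPM. PKA catalytic RNA exceeded PKG RNA 44.5-fold in pool 1 and 41.8-fold in pool 2. Prkg1-201 carried 74.0% and 75.7% of Prkg1, and Prkg1-202, which starts elsewhere, carried 18.7% and 11.4%. Smooth muscle and pericyte markers, cells in which Prkg1 is known to be high, summed to 153 TPM in pool 1 and 131 TPM in pool 2.

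The 16 AKAP genes summed to 378 ± 15.8 TPM. Of them, 13 reached 1 TPM in both pools, against 59.1% of all protein-coding genes. Their levels were spread more evenly than those of the kinase subunits, with 7 genes above 30 TPM on average. Akap1, which anchors PKA at the outer mitochondrial membrane, had 53.8 TPM in pool 1 and 46.1 TPM in pool 2. The nuclear anchor Akap8 had 45.0 and 44.0 TPM and its neighbour and relative Akap8l had 52.8 and 49.7 TPM. Akap8 was lower than Akap8l by a log2 difference of -0.20 ± 0.04, a pair called different although the ratio is small. Akap12, the membrane scaffold gravin, had 35.8 and 32.0 TPM.

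Akap7 and Akap6, anchors known from the cardiac myocyte, were in the middle of the AKAP range. Akap9, which binds the KCNQ1 channel, was higher, and Akap5, known from the beta-adrenergic receptor complex, was lower, as given below. Akap7, whose products bind the calcium channel and phospholamban complexes, had 15.9 TPM in pool 1 and 17.4 TPM in pool 2. Akap6, the anchor of the nuclear envelope and the ryanodine receptor, had 8.50 and 7.54 TPM. Akap6 was lower than Akap7 by a log2 difference of -1.05 ± 0.22, a pair called different. On complete coding transcripts the same difference was -0.01, with 8.57 and 7.58 TPM for Akap7. Akap10 and Akap11 had means of 11.7 and 9.27 TPM.

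Akap5, the membrane anchor known from synapses and from the beta-adrenergic receptor complex, had 4.33 TPM in pool 1 and 2.01 TPM in pool 2. The gene (ENSMUSG00000021057.15) lies on chromosome 12 at 76324891 to 76334153. Akap1 exceeded it by 4.03 ± 0.60 on the log2 scale. Akap17b had 1.33 and 1.40 TPM. The sperm-tail anchors Akap3 and Akap4 had 0 to 2 counts and Akap14 had 7 and 1 counts. Of 4 sperm and testis markers, 3 were at 0 in both pools.

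Akap9, Akap13 and Akap2 are large genes with much of their TPM on transcripts that M21 does not list as complete coding. Akap9, the centrosome and Golgi anchor that also binds the KCNQ1 channel, had 73.4 TPM in pool 1 and 82.3 TPM in pool 2, the third highest level of the members. Of this, 41.4% and 41.5% lay on Akap9-206, a retained-intron transcript of 491 nt. Akap9-207, a coding transcript annotated as incomplete, held 32.0% and 29.7%. Complete coding transcripts of Akap9 had 4.01 and 3.25 TPM, which would place it at rank 30 among the members. Akap9 exceeded Akap6 by 3.26 ± 0.24 on the log2 scale with all transcripts, and on complete coding transcripts the difference was -1.13 ± 0.09.

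Akap13, which also activates the GTPase RhoA, had 32.1 TPM in pool 1 and 31.7 TPM in pool 2. Of its TPM, 97.1% lay on transcripts without a match in M21, led by one of 12597 nt with 46.7% and 42.8%, so its coding share could not be assigned. Akap13 and Akap12 were not called different (log2 difference -0.08 ± 0.10). Akap2 had 44.3 and 33.1 TPM, of which 43.1% and 42.2% lay on the incomplete 784-nt transcript Akap2-208. Its exons overlap those of Pakap on the same strand and its estimated counts were not whole, so reads may be divided between these genes.

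Across the 43 members that averaged 1 TPM or more, 26 had over 90% of their TPM on complete coding transcripts and 19 had all of it there. The median share was 98.3%, against 96.3% for protein-coding genes with such a mean. Under 50% were 6 members, against 12.0% of protein-coding genes. They were Akap9, Pde4d, Pde1a, Akap7, Pde10a and Akap13, of which Akap13 counts as under 50% because transcripts without an M21 match, whose class is unassigned, held 97.1% of its TPM. Of 23 genes whose transcripts were examined singly, Adcy5, Adcy6, Akap6, Akap8, Akap12, Pde3a, Pde5a and Prkaca have 1 listed transcript each, which fixes its share. Of the other 15 genes, 7 had a transcript with over 50% of the gene's TPM. A leading transcript held 93.5% and 93.2% of Prkar2a (Prkar2a-201), 79.8% and 84.8% of Akap1 (Akap1-201) and 78.4% and 61.0% of Adcy9 (Adcy9-202) in pools 1 and 2. No single transcript dominated Pde4a, Pde7a or Pde4dip, whose leading ones held 48.8% and 46.1% (Pde4a-203), 48.7% and 43.2% (Pde7a-202) and 33.3% and 32.3% (Pde4dip-205).

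**Figure D3:**
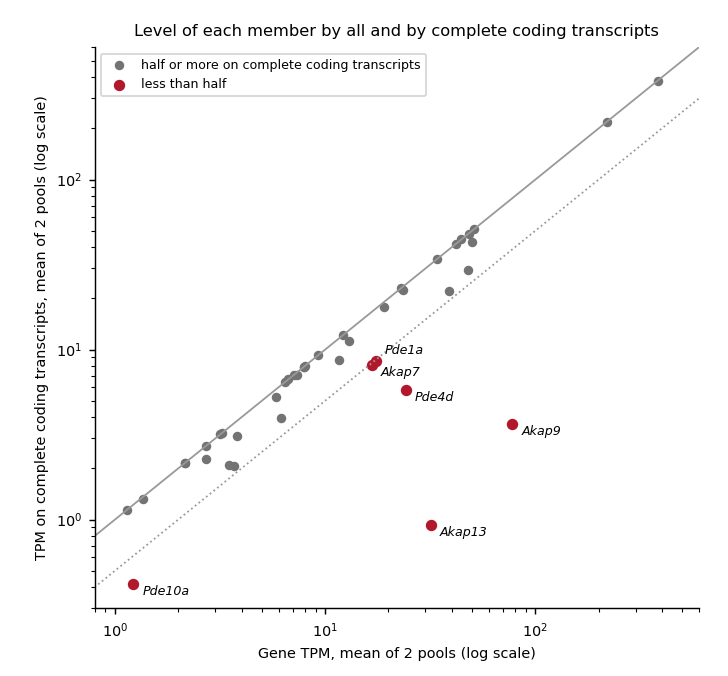
Each point is 1 of the 43 members, with gene TPM on the horizontal and TPM on complete coding transcripts on the vertical axis, both means of 2 pools on log scales. The solid line marks equality and the dotted line 50%; the 6 named genes lie under the dotted line, Akap9 and Akap13 farthest from it, and most TPM of Akap13 is on transcripts with no assigned class.

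Of the 22 gene pairs examined, 21 could be measured and 18 were called different, 11 with the first gene higher and 7 with the second. In all 18 the mean log2 difference was larger than 2 SD. The 3 without a call were Pde4d with Pde4b, Pde7a with Pde7b, and Akap13 with Akap12. The deposited intervals cover counting and assignment error only, so genes at unlike levels are readily called. How often other gene pairs would be called was not computed, and the 18 calls describe these pairs only. The smallest p that an exact sign-flip test (two-sided) can reach with 2 pools is 0.5, so no p-values were computed.

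Other genes of the pathway came from a list of 61, all of them measured. Of these, 45 reached 1 TPM in both pools, as 59.1% of all protein-coding genes did. The median of the list was 8.48 TPM, against 3.69 TPM for all protein-coding genes. Of the G protein alpha subunits, Gnas, the stimulatory one, had 1209.7 TPM in pool 1 and 1011 TPM in pool 2, and the inhibitory Gnai2 had 349 and 365 TPM. The PKA inhibitor peptides Pkig and Pkia had 312 and 333 TPM, and 41.5 and 43.6 TPM. Pkig RNA was thus at a level above Prkaca in both pools by TPM. This order rests on the length correction, since Pkig drew fewer counts, with 7376 and 8653 against 13705 and 13228 for Prkaca.

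Receivers of cAMP other than PKA were also present. Popdc2 and Bves, Popeye-domain membrane proteins that bind cAMP, had 352 and 338 TPM, and 194 and 181 TPM. Rapgef3 (Epac1), a cAMP-activated exchange factor, had 24.1 and 21.1 TPM, and its relative Rapgef4 had 4.53 and 3.34 TPM. Of the HCN pacemaker channels, Hcn4 had 0.86 and 0.52 TPM, and Hcn2 had 0.01 and 0.02 TPM. Cnga3, a photoreceptor channel, was at 0 in both pools, which at 3 counts allows up to 0.0555 TPM in pool 1 and 0.0500 TPM in pool 2.

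On the cGMP side, the subunits of the nitric oxide receptor Gucy1b1 and Gucy1a1 had 39.2 and 38.4 TPM, and 36.5 and 33.9 TPM. The natriuretic peptide receptor Npr1 had 11.0 and 9.07 TPM. The photoreceptor cyclase Gucy2f was at 0 in both pools. Of the nucleotide efflux pumps, Abcc5 had 56.7 and 50.1 TPM and Abcc4 had 1.81 and 1.28 TPM.

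All 6 transcription factors and coactivators listed reached 1 TPM, led by Atf1 with 29.8 and 35.5 TPM and Crem with 19.8 and 22.3 TPM. Of 12 anchors without the Akap name, 11 reached it, led by the cortical linker Ezr with 121 and 132 TPM and the Golgi protein Acbd3 with 15.3 TPM in both pools. Among the cardiac substrates of PKA, troponin I (Tnni3) had 3229.8 and 3243 TPM and myosin-binding protein C (Mybpc3) had 1005 and 812 TPM. The 7 substrate genes had a median of 634 TPM.

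**Figure D4:**
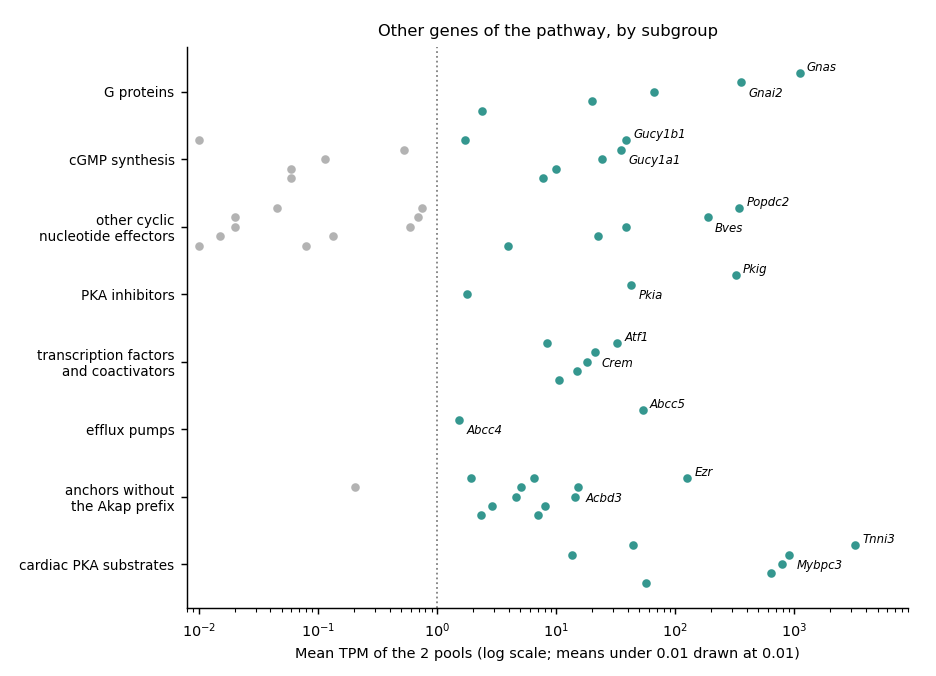
Mean TPM of the 2 pools on a log scale for 61 other genes of the pathway, a row for each subgroup, with the 2 highest of each named; grey points are under a mean of 1 TPM. Gnas, Gnai2, Pkig, Popdc2, Bves, Ezr and 4 of the 7 PKA substrates lie above 100 TPM, and grey points fall mainly among channels and receptor cyclases.

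The labels number the pools as biological replicates of 1 group, and differences between them describe these libraries. Of the 43 members that averaged 1 TPM or more, 39 were within 1.5-fold on the scale of TPM + 0.1. The exceptions were Akap5, Pde8a and Pde5a, higher in pool 1, and Pde10a, higher in pool 2. Among protein-coding genes 3.5% were more than 1.5-fold higher in pool 1 and 3.87% were more than 1.5-fold higher in pool 2. Akap5 was the only one of these 43 more than 2-fold apart with a mean of at least 100 counts and separate intervals, at 750 and 393 counts in pools 1 and 2 and a log2 ratio of 1.07. That rule took 1.93% of protein-coding genes. Adcy2, whose mean of 0.915 TPM keeps it out of the 43, met it too, with 150 and 56 counts and a log2 ratio of 1.39.

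Small differences leaned one way. In pool 1, 36 members (83.7%) were higher and 7 were lower, against 61.8% higher among protein-coding genes, and the median log2 ratio of pool 1 over pool 2 was 0.20 for members and 0.06 for protein-coding genes. Nuclear protein-coding genes held 82.0% of TPM in pool 1 and 78.0% in pool 2. After TPM were rescaled to those genes the medians were 0.12 for members and -0.01 for protein-coding genes, with 31 members and 46.9% of protein-coding genes higher in pool 1. With library sizes scaled by TMM they were 0.11 and 0.01, with 32 members and 52.8% of protein-coding genes higher in pool 1. No test could be made on 2 libraries.

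Markers of tissues next to the heart also differed between the pools. All 6 lung epithelium markers were higher in pool 1, with sums of 984 TPM in pool 1 and 122 TPM in pool 2, led by Sftpc. Of 5 thymocyte markers 4 were measured, all higher in pool 2, with sums of 23.4 TPM in pool 1 and 70.3 TPM in pool 2. The 6 fast skeletal muscle markers were higher in pool 2, summing to 35.3 TPM in pool 1 and 74.9 TPM in pool 2.

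Within the heart, the 4 atrial markers were higher in pool 2 (8336 TPM in pool 1 and 11463 TPM in pool 2). The 4 ventricular markers (12861 and 10031 TPM) and the 4 fibroblast markers (1689.8 and 1322 TPM) were higher in pool 1. The 7 cardiomyocyte markers summed to 28067 TPM in pool 1 and 27557 TPM in pool 2, with 3 higher in pool 1. The part of these cell mixtures in the levels of Akap5, Pde8a, Pde5a and the other members was not tested.

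**Figure D5:**
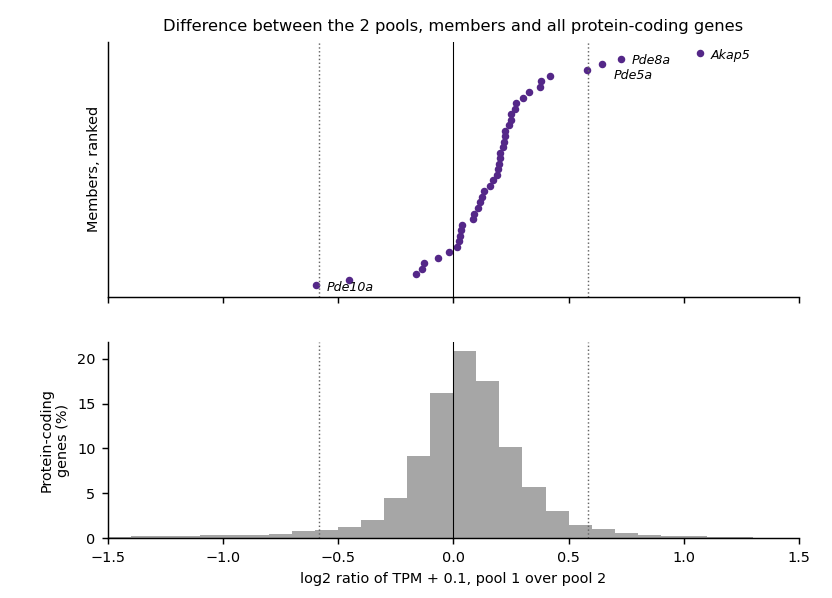
Upper panel: log2 ratio of TPM + 0.1, pool 1 over pool 2, for the 43 members in rank order, with those past 1.5-fold named. Lower panel: percent of protein-coding genes that averaged 1 TPM or more in bins of the same ratio, shown between -1.5 and 1.5; dotted lines mark 1.5-fold. Most members lie right of 0, with a median of 0.20.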

How the data were processed

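The authors deposited, for each library, a gene table and a transcript table with estimated counts, fractional in places and left unnormalized, per the file headers. The deposited TPM column is scaled over the whole table, spike-ins and mitochondrial genes included. The deposited transcript tables also state what percent of a gene's TPM falls on each transcript. Genome build mm10 and annotation M4 are named in the notes deposited with the files; aligner, quantification tool and use of strand: not given in the sources used here. Without strand, reads of overlapping genes on opposite strands cannot be told apart, which touches 9 of the 43 members that averaged 1 TPM or more; exons of 4 overlap a gene on the same strand, and 38 had estimated counts whole within 0.005 in both libraries. The deposited intervals of TPM have no stated level. In each library the TPM of 3 of the 43 members lay outside them, Prkar1a and Prkaca above and Prkar1b below. Intervals and floors cover counting and assignment error only.

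Names, gene classes, coordinates and coding status came from GENCODE M21, joined by identifier without version. A complete coding transcript is protein_coding in M21 with no tag for a missing start or end. Pairs and pools were compared as log2 ratios of TPM + 0.1, and SD are over 2 libraries. All members are accounted for, those that averaged 1 TPM or more with the value of each library or the mean. The members, lists, pairs and thresholds were chosen with earlier results of these data known. TMM factors, from genes that drew 10 counts or more in both, came from edgeR 4.0.16 in R 4.3.3; no test was run. The 2-fold rule was tested on simulated counts with counting error alone, and the 1.5-fold rule was not. That test cannot show how either rule behaves between real pools. Tables were read with pandas 2.3.3 under Python 3.11.15. Promoter windows are RefSeq's on GRCm38.p6; 47 of 59 members had one. A planned comparison of protein sequences was not run.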

Additional observations from a re-analysis of the deposited data

Results flagged for a closer look

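Transcripts of Pde2a were present outside the rows that the gene comparisons used. The 2 transcripts that M21 assigns to Pde2a had a mean of 0.985 TPM, from 145 counts in pool 1 and 79.9 counts in pool 2, and were listed under the identifier of Gm45837. Gm45837-201, listed there too, had a mean of 13.2 ± 1.73 TPM. With the 2 Pde2a transcripts added, the phosphodiesterase sum moved by less than the SD between pools, and with all 3 it was 132 TPM, moved by more than that SD.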

How the results depend on the processing

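Leaving out a library gave ranges of 5.64 to 6.66 TPM for the median member, 42 to 44 members at 1 TPM, 109 to 126 TPM for phosphodiesterases, 48.5 to 57.4 TPM for cyclases, 245 to 276 TPM for PKA catalytic, 416 to 418 TPM for PKA regulatory, 5.85 to 6.20 TPM for PKG and 367 to 389 TPM for AKAP genes, with 18 pairs called different and 15 genes with a transcript over 50% either way, 8 of which have 1 listed transcript. Rescaling TPM to nuclear protein-coding genes raises every level, by its construction, to a member median of 7.72 TPM and sums of 147 (phosphodiesterases), 66.1 (cyclases), 325 (PKA catalytic), 521 (PKA regulatory), 7.53 (PKG) and 473 TPM (AKAP genes). Restriction to complete coding transcripts, an alternative chosen after seeing the data, gave a member median of 3.63 TPM and sums of 79.8 (phosphodiesterases), 412 (PKA regulatory), 5.23 (PKG) and 238 TPM (AKAP genes). Akap13 enters that AKAP sum at 0.93 TPM, because 97.1% of its TPM lay on transcripts without an M21 match. The restriction turned Pde4d over Pde3a (-0.14) and Akap9 over Akap6 (-1.13), log2 differences that leave out the noncoding and the incomplete coding transcripts. Posterior mean TPM gave 412 TPM for PKA regulatory and 6.89 TPM for PKG sums. It moved 14 values by more than the SD between pools and 60 by less. With all 3 transcripts listed with Pde2a, an alternative also chosen after seeing the data, the phosphodiesterase sum was 132 TPM. Without length correction 6 called pairs turned: Adcy5 over Adcy4 (0.42), Pde4d over Pde3a (-0.54), Pde1c over Pde1a (0.58), Pde5a over Pde9a (0.57), Akap6 over Akap7 (1.90) and Akap8 over Akap8l (0.66), in log2 differences of depth-scaled counts, since longer transcripts draw more reads. The count of members more than 1.5-fold apart, 4 as reported, was 9 with no filter on low values and 1 with a pseudocount of 1, which shrinks low ratios. Other alternatives kept the counts within 1.5 times. No paired analysis was possible because there is 1 group. The comparison of Pde2a with Pde3a and the protein sequence features were not run. Depth limits the 16 members under a mean of 1 TPM, with 0 to 317 counts a library. This holds less for Adcy1, with 199 and 317 counts in pools 1 and 2, and for Adcy2, with 150 and 56. Having 2 pools limits every difference.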
